A study of Homo sapiens with 4 samples.

Results

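The genes described here encode components of the complement cascade and the regulators that hold it in check: C3, CFB, CFI, C1R, C1S, SERPING1, CD46, CD55 and CD59. They were chosen by gene symbol, and where a symbol occurred more than once the Ensembl identifier with most counts was taken. Of the 9, 8 were read from a count table of 12912 genes, and SERPING1 was not analysed here. 786-O is a human clear cell renal carcinoma cell line without functional VHL, the substrate-binding subunit of a ubiquitin ligase. RNA-seq was performed on 2 libraries of 786-O-Ctrl, labelled as wild type and VHL-null, and on 2 of 786-O-VHL, labelled as VHL restoration, in which a retroviral vector expresses HA-tagged VHL. All 4 libraries are labelled 786-OTR, the line that also carries a triple reporter of GFP, luciferase and thymidine kinase, and all cells grew in RPMI1640 with fetal bovine serum. Whether the parental cells received an empty vector, or either subline is 1 clone, is not stated in the sources consulted. Each group is a single subline, and nothing in the labels says that the libraries of a group came from separate cultures, so the p-values below measure only the spread between these libraries.

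Complement is a cascade of plasma proteins made mostly by the liver and, in smaller amounts, by many epithelial cells, the renal tubule among them. The C1 complex, with the serine proteases C1R and C1S, starts the classical pathway, CFB supplies the protease of the alternative pathway, and both routes cleave C3, whose fragment C3b marks surfaces. Host cells are spared through regulators: SERPING1 inhibits C1R and C1S, CFI cuts C3b with CD46 as a cofactor, CD55 takes convertases apart, and CD59 blocks the membrane attack complex. CD46 crosses the membrane, whereas CD55 and CD59 are held by a glycosylphosphatidylinositol (GPI) anchor.

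The counts summed to between 2807779 and 22141263 per library. The lowest total was that of 786-O-VHL replicate 1, where 3 counts, the most that a count of 0 allows, correspond to 1.02 CPM, against 0.142 to 0.199 CPM in the other libraries. CPM here are counts scaled to library size and by TMM, edgeR's correction for library composition, and these limits cover counting error only. The table gives both 786-O-Ctrl columns the same name, so its libraries are told apart by depth. In the following, controls are the deeper and then the shallower 786-O-Ctrl library, and restored cells are 786-O-VHL replicates 1 and 2, in that order. VHL mRNA itself was at 42.9 and 43.9 CPM in the controls and at 178 and 163 CPM in the restored cells. All 8 markers listed for renal tubule and clear cell carcinoma had counts, with summed levels of 3715 and 3704 CPM in the controls and 2969 and 2858 CPM in the restored cells. At an edgeR FDR under 0.05, 5 of these markers were lower and 2 higher in the restored cells. Over all tested genes, 31.9% were lower and 32.6% higher. Of the markers of other cell types, 0 of 5 for hepatocytes, 2 of 6 for monocytes and macrophages, 2 of 5 for fibroblasts and 2 of 4 for endothelium had a row in the table, and the sum of each of these lists was between 0 and 14.2 CPM.

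In 786-O-VHL the mRNA of C3, C1R, CFI, CFB and CD55 was higher than in the controls, and that of CD46 and CD59 was lower, so the soluble components and the membrane regulators did not move as one block. C3 rose 1.86-fold and CD55 1.90-fold, C1R rose 2.89-fold, CD46 was 2.0-fold lower and CD59 1.43-fold lower. CFI and CFB went from a few counts to levels about an order of magnitude higher. C1S was higher in both restored libraries but missed the threshold. At an edgeR FDR under 0.05, adjusted over the 12335 tested genes, 5 of the 8 were higher and 2 lower, where 32.6% of all tested genes were higher and 31.9% lower. In each of the 8 the groups did not overlap, with 6 higher and 2 lower, which was also the case for 80% of all tested genes, 40.8% higher and 39.2% lower. The counts of calls are therefore read as a description, and the sizes and directions of single genes carry the comparison. CFB and CFI passed the filter on low counts through 786-O-VHL alone, where they are high, so their place in either count carries no weight. For CFB the lower 786-O-VHL value is 2 counts, 0.68 CPM, under the 1.02 CPM given above for that library. Of the 6 others, 3 were called higher and 2 lower. In bulk libraries, fewer expressing cells and less RNA per cell cannot be told apart.

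**Figure D1:**
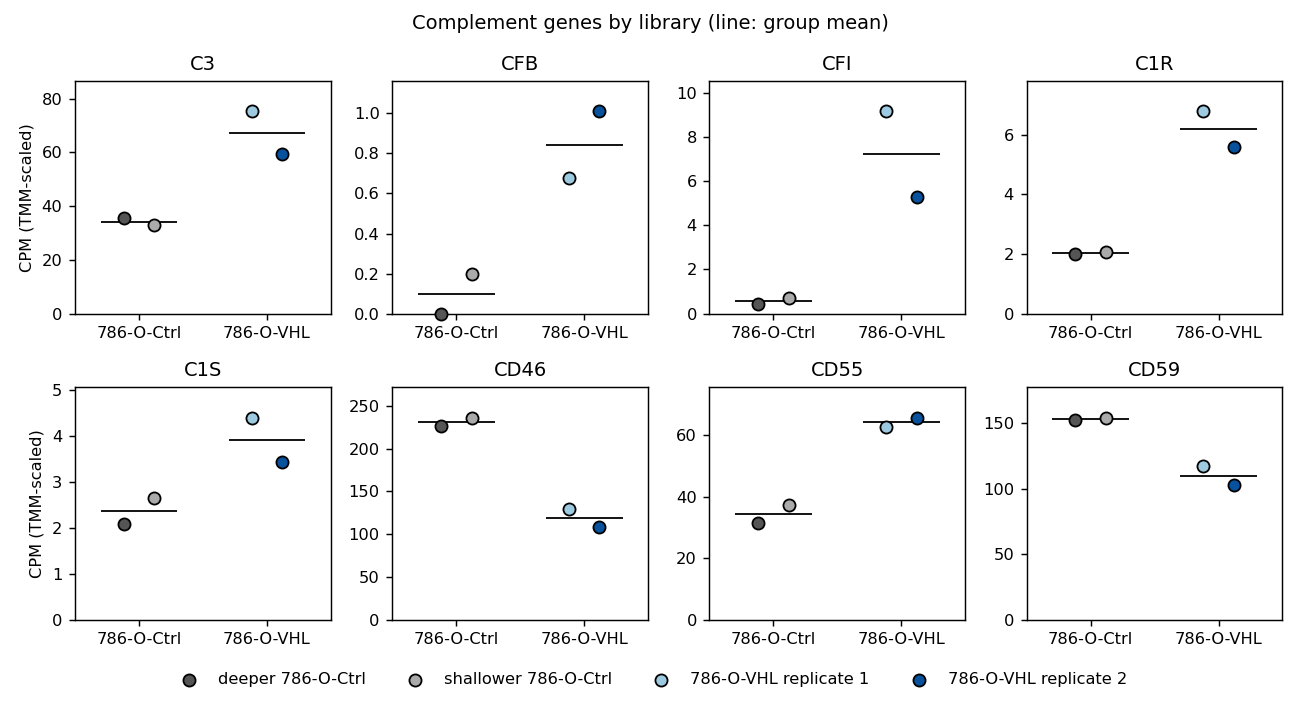
Each panel plots 1 gene, with TMM-scaled CPM on a linear axis from 0, the 4 libraries as points and the group means as lines. The 786-O-VHL points lie above both 786-O-Ctrl points for C3, CFB, CFI, C1R, C1S and CD55, and below both for CD46 and CD59.

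The promoter sequences are shown because several of these genes rose together and such genes are known to be driven by interferons and interleukins through promoter elements. RefSeq windows (GRCh38.p14) were matched by symbol for 6 of the 8 genes, all except C3 and C1S, and the 250 bases before the annotated start are considered. The 3 genes printed first rose most on a log scale, and CD55 and CD46 are neighbors at 1 locus that moved in opposite directions. The first window of each gene is given 5′ to 3′ on the strand of the gene, and capitals mark matches on either strand.
CFB (chr6:31945845-31946094, plus strand): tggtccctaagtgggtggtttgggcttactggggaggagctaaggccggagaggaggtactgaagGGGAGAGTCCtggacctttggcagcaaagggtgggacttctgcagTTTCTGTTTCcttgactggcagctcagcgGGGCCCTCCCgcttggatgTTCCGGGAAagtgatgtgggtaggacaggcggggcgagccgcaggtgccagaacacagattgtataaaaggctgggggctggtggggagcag
CFI (chr4:109802000-109802249, minus strand): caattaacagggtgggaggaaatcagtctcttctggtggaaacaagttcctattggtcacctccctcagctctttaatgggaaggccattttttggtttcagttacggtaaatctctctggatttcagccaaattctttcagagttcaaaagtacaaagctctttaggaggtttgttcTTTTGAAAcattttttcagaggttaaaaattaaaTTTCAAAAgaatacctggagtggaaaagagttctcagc
C1R (chr12:7092446-7092695, minus strand): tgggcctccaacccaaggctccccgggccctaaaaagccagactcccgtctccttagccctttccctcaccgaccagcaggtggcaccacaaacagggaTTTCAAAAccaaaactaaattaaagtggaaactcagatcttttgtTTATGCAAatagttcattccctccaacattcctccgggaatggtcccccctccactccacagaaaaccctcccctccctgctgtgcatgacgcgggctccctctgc
CD55 (chr1:207321428-207321677, plus strand): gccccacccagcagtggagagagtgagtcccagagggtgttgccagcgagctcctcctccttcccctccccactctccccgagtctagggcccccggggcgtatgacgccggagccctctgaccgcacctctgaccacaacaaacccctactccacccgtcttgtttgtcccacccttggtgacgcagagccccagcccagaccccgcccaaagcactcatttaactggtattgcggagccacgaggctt
CD46 (chr1:207751788-207752037, plus strand): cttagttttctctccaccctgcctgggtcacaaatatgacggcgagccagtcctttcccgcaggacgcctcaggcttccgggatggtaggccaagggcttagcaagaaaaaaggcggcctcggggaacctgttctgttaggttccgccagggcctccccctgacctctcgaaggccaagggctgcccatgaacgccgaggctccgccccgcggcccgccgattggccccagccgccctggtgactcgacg
The CFB window held a gamma-activated site (TTCNNNGAA) from base -92 to -84 before the start, an interferon-stimulated response element (here on the reverse strand) from -140 to -131, and 2 matches to an NF-kB consensus from -185 to -176 and from -111 to -102. The CFI window held 2 C/EBP matches (TTNNGNAA) from -72 to -65 and from -38 to -31, and so did the C1R window from -151 to -144 and from -106 to -99. No match to these letters was found in the CD55 and CD46 windows, nor was a core of the hypoxia response element (ACGTG or GCGTG) found in any of the 5. None of the printed matches overlapped another. Of the windows not printed, CD59 windows 1 and 2 overlap and held the same gamma-activated site. CD59 window 3 held a hypoxia core from -75 to -71 and 2 C/EBP matches. C1R window 2 held a gamma-activated site, an NF-kB match and a C/EBP match. Over 35116 RefSeq windows of the same length, 6.57% held the gamma-activated site, 3.02% the interferon element, 22.6% the NF-kB letters, 33.2% the C/EBP letters and 43.2% the hypoxia core. A match describes the letters only, and binding was not measured in these data.

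C3 is the protein on which all complement pathways converge. Its mRNA was at 35.5 and 32.9 CPM in the controls and at 75.3 and 59.5 CPM in the restored cells. Both restored libraries were thus well above both controls, and they differed from each other more than the controls did. The group means were 34.2 ± 1.85 and 67.4 ± 11.2 CPM (SD, n = 2 each). The log2 fold change fitted by edgeR, which is not the ratio of these means, was 0.89 (SE, the standard error, 0.0942, edgeR FDR = 2.72e-09). C3 (ENSG00000125730.16) is annotated at chr19:6677715-6730573 (GRCh37, minus strand). GPR108, on the same strand, shares 0.649 kb of that span but no exonic base, and its log2 fold change was 0.91 (edgeR FDR = 2e-12). A long noncoding RNA gene on the same strand, ENSG00000276980, not analysed here, shares 1.357 kb of the 11.577 kb of C3 exons. The use of strand in counting is not given, and whether any reads were exchanged between both genes was not tested. Of the nearest tested genes outside this span, CD70 fell by 0.43 on the log2 scale (edgeR FDR = 1.67e-06) and TRIP10 rose by 0.41 (edgeR FDR = 2.78e-06).

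CFB, the factor B of the alternative pathway, stayed near the limit of detection. It had 0 and 3 counts in the controls and 2 and 17 counts in the restored cells. Over both libraries of a group this was 0.0831 CPM against 0.96 CPM, a ratio of 11.6 with an exact Poisson interval at 95% from 3.4 to 61, which covers counting error only. The edgeR FDR was 0.00106. It missed the threshold with DESeq2, where the adjusted p was 0.0558, and without the deeper 786-O-Ctrl library, where the edgeR FDR was 0.0643 and the fitted log2 fold change was 2.18. Without the shallower one the only control count was 0 and the fitted value, 6.69, depends on the prior count and is no bound. Without 786-O-VHL replicate 2 it had too few counts to be tested. The identifier under which CFB was counted, ENSG00000204359.9, is not among the genes of the GRCh37 annotation used here, which places CFB under ENSG00000243649, an identifier without a row in the count table. What share of the CFB reads the counted identifier received was not tested, so the level of CFB is uncertain and no GRCh37 position is given for it. Its promoter window above was matched by symbol and not by this identifier.

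CFI, the protease that inactivates C3b, had a fitted change close to that of CFB, and which of the 2 was larger differed between fits. It had 9 and 11 counts in the controls and 27 and 89 in the restored cells, which correspond to 0.427 and 0.731 CPM in the control libraries and to 9.16 and 5.29 CPM in the restored cells. The lower 786-O-VHL value was several times the higher control value, although 786-O-VHL replicate 1 has only 27 counts behind it. The log2 fold change was 3.47 (SE 0.387, edgeR FDR = 8.12e-09), and over pooled counts the ratio was 10.6 with an exact Poisson interval at 95% from 6.55 to 18. With a library left out the log2 fold change was between 3.11, without the deeper control, and 4.01, without 786-O-VHL replicate 2, and the call was kept each time. CFI (ENSG00000205403.13) spans 110652164 to 110723306 on the minus strand of chromosome 4, and 1.562 kb of its 5.319 kb of exons are shared with a longer annotated gene on the same strand that was not analysed here. Its nearest tested neighbors differed far less: PLA2G12A had a log2 fold change of 0.20 (edgeR FDR = 0.186), and that of GAR1 was 0.00 (edgeR FDR = 0.97). CFB and CFI were also the 2 of the 8 past a 4-fold change with an edgeR FDR under 0.01. That mark was passed by 4.46% of all tested genes, 2.92% upward and 1.54% downward. Both genes entered the test through 786-O-VHL alone, where they are high, so their number is not weighed against that share. With at least 10 counts in every library, a filter that removes both, 0 of the genes still tested passed.

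The proteases of C1 were both low. C1R, which activates C1S, was at 1.99 and 2.06 CPM in the controls and at 6.78 and 5.58 CPM in the restored cells, from 42 and 31 counts and from 20 and 94 counts. Its controls were nearly equal, and both 786-O-VHL values lay at more than double that level. The log2 fold change was 1.53 (SE 0.277, edgeR FDR = 2.32e-05). C1S, the protease that cleaves C4 and C2, was at 2.09 and 2.66 CPM in the controls and at 4.41 and 3.44 CPM in the restored cells. These values do not overlap, but the gap between the groups is of the order of the gaps within them. The log2 fold change of C1S was 0.64 (95% interval 0.0041 to 1.27, edgeR FDR = 0.0724), an interval that reaches from almost no change to beyond the change of C3. The adjusted value depended on the method, at 0.0469 with limma-voom, 0.265 with DESeq2 and 0.0306 with edgeR scaled by library totals alone.

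Within each library, which needs no scaling, there were 1.05 and 1.29 C1S counts per C1R count in the controls and 0.65 and 0.617 in the restored cells. The log2 ratio was 0.22 ± 0.213 and -0.66 ± 0.0531 (SD, n = 2 each). A two-sided exact permutation test over 2 libraries against 2 cannot give a p below 0.333, and when the libraries were thinned to the depth of the shallowest the difference of the log2 ratios shrank from -0.88 to -0.076. That thinning was 1 random draw, after which C1S had too few counts to be tested, and with a library left out the difference lay between -1.03 and -0.73. Whether C1R and C1S changed by different amounts was not settled by these values.

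C1S (ENSG00000182326.15) and C1R (ENSG00000159403.18) are neighbors on chromosome 12 of GRCh37, on the plus strand from 7096351 to 7178336 and on the minus strand from 7187513 to 7245203, with 9.2 kb between them. The C1R-like gene C1RL, which follows on the strand of C1R, shares 0.672 kb of exons with it, and had 16.6 and 15.9 CPM in the controls and 30.9 and 23.7 CPM in the restored cells. C1RL rose with a log2 fold change of 0.65 (SE 0.13, edgeR FDR = 8.68e-05). At the edges of this stretch, EMG1 fell by 0.40 on the log2 scale (edgeR FDR = 7.89e-05), and RBP5, at 3.28 CPM in the controls and 2.46 CPM in the restored cells, missed the threshold (edgeR FDR = 0.317). LPCAT3, on the opposite strand, shares 29.431 kb of the span of C1S but no exonic base. Its log2 fold change was -0.44 (edgeR FDR = 0.0107). Assignment of reads between C1R and C1RL is uncertain where their exons coincide, as it is for the 0.229 kb of exons that C1S shares with another gene on its strand.

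The membrane regulators, which protect the cell that carries them, split in direction. CD46, the transmembrane cofactor for CFI, was at 226 and 236 CPM in the controls and at 130 and 109 CPM in the restored cells. Both restored libraries lay far under both controls. The means were 231 ± 7.08 and 119 ± 14.6 CPM (SD, n = 2 each), and the fitted log2 fold change was -1.0 (SE 0.0727, edgeR FDR = 1.31e-12). CD59, the inhibitor of the terminal complex, was at 152 and 154 CPM in the controls and at 117 and 103 CPM in the restored cells. It showed the same direction with a smaller gap, a log2 fold change of -0.51 (SE 0.0691, edgeR FDR = 2.28e-07).

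CD55, the decay-accelerating factor, went the other way. Its values were 31.6 and 37.3 CPM in the controls and 62.8 and 65.8 CPM in the restored cells. The restored libraries were close to each other and clear of the controls, with means of 64.3 ± 2.15 and 34.5 ± 4 CPM (SD, n = 2 each). The fitted log2 fold change was 0.92 (SE 0.0893, edgeR FDR = 4.84e-10). CD55 (ENSG00000196352.15) and CD46 (ENSG00000117335.19) both lie on the plus strand of chromosome 1, from 207494864 to 207560149 and from 207925382 to 207968858, in the cluster of genes for regulators of complement activation. On the sides that face each other they are the nearest tested genes, 365.2 kb apart. On the outer sides, PFKFB2 is nearer to CD55, at 240.5 kb, and CD34 is nearer to CD46, at 85.5 kb. CD46 shares 0.797 kb of exons with MIR29B2CHG on the opposite strand, and CD59 shares 0.629 kb with a gene on its own strand, neither of which was analysed here. On the far side of CD55, PFKFB2 rose with a log2 fold change of 0.61 (edgeR FDR = 8.03e-05). On the far side of CD46, the low-expressed CD34 had 18 and 14 counts in the controls and 0 and 1 in the restored cells. CD59 (ENSG00000085063.16) lies on the minus strand of chromosome 11 from 33724556 to 33758025, where the next gene, FBXO3, had a log2 fold change of 0.16 (edgeR FDR = 0.203) and HIPK3 on the other side rose by 0.44 on the log2 scale (edgeR FDR = 1.55e-05).

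**Figure D2:**
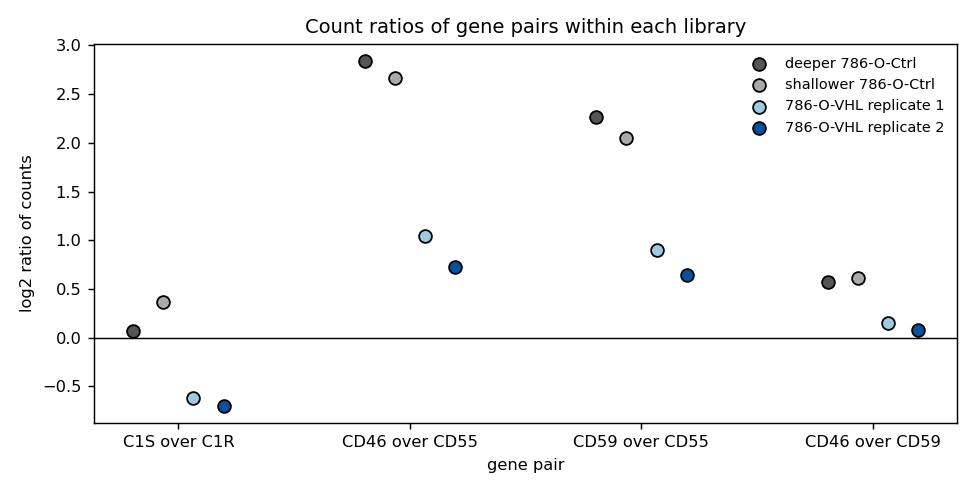
Log2 ratios of raw counts for 4 gene pairs are plotted on the y axis, with 1 point per library and the pairs along the x axis. In each pair both 786-O-VHL points lie under both 786-O-Ctrl points, and the widest gap is that of CD46 over CD55.

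Ratios within a library put the split into 1 number per library. There were 7.15 and 6.33 CD46 counts per CD55 count in the controls and 2.06 and 1.66 in the restored cells, a difference of the mean log2 ratios of -1.86 (2.75 ± 0.124 against 0.89 ± 0.226, SD, n = 2 each). For CD59 over CD55 the difference was -1.39, and for CD46 over CD59 it was -0.48, with 1.49 and 1.53 counts per count in the controls and 1.11 and 1.06 in the restored cells. CD55 took 7.71% and 8.72% of the summed CPM of the 3 membrane regulators in the controls and 20.3% and 23.7% in the restored cells. The share of CD46 went from 55.2% in both controls to 41.9% and 39.2%, and that of CD59 was between 36.1% and 37.8% in all 4 libraries. These shares also reflect transcript length. The summed CPM of the 3 regulators was 410 and 428 in the controls and 309 and 278 in the restored cells, whereas the 5 soluble genes together had 40.0 and 38.5 CPM in the controls and 96.3 and 74.8 CPM in the restored cells. Membrane regulator over soluble CPM was 10.2 and 11.1 in the controls and 3.21 and 3.71 in the restored cells. The soluble sum was mostly C3, at 88.7% and 85.3% in the controls and 78.2% and 79.5% in the restored cells. It also includes CFI, itself a regulator, so the ratio does not set regulators against components.

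**Figure D3:**
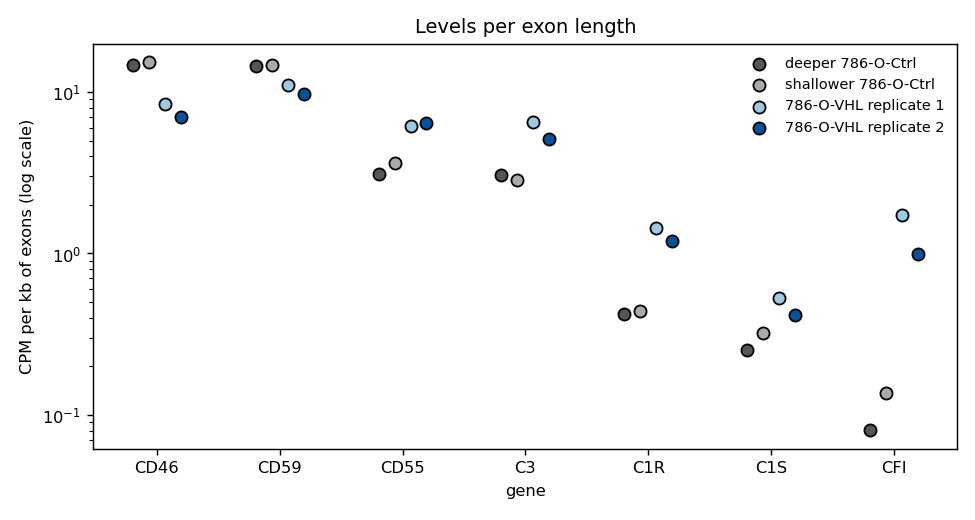
CPM per kb of annotated exons are plotted on a log axis for the 7 genes with a GRCh37 position, with 1 point per library, ordered by the 786-O-Ctrl mean. CD46 and CD59 are on top in the controls and CFI is lowest, and in the restored cells the CFI points lie on either side of those of C1R.

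Levels were compared between genes per kb of exons, taken as the union over all annotated transcripts. In 786-O-Ctrl, CD46 (14.6 and 15.2 CPM per kb) and CD59 (14.4 and 14.6 CPM per kb) led and did not differ beyond their spread. CD55 at 3.08 and 3.64 CPM per kb and C3 at 3.07 and 2.84 CPM per kb came next and were not separated beyond their spread either. C1R at 0.425 and 0.439 CPM per kb, C1S at 0.252 and 0.321 and CFI at 0.0804 and 0.138 followed in that order, each apart from the next. In 786-O-VHL, CD59 (11.1 and 9.76 CPM per kb) lay above CD46 (8.36 and 7.02 CPM per kb), and CD55 and C3 overlapped at 6.12 and 6.42 and at 6.5 and 5.14 CPM per kb. CFI at 1.72 and 0.994 CPM per kb then overlapped C1R at 1.44 and 1.19, and C1S was lowest at 0.532 and 0.415 CPM per kb. The union of exons overstates the length of a typical transcript, by an amount that differs between genes, so neighbors in this order are placed only roughly.

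The rest of the cascade was followed through a list of 50 other complement genes, of which 16 had a row and 12 could be tested. Of the 12, 6 were higher and 2 lower in the restored cells at an edgeR FDR under 0.05, where 32.6% of all tested genes were higher and 31.9% lower. Their median log2 fold change was 0.47, and that over all tested genes was 0.02. The list median includes C4A and C4B, which passed the filter through 786-O-VHL alone, where they are high, so the medians are not compared. In all, 3 of the 12 passed the filter through 1 group only, and of the remaining 9 there were 4 higher and 2 lower. Clusterin (CLU), a fluid-phase inhibitor of the terminal complex, rose from 47.4 and 48.4 CPM to 175 and 139 CPM, a log2 fold change of 1.66 (SE 0.0809, edgeR FDR = 2.06e-16). ITGB2, the beta chain of the C3 receptors CR3 and CR4, rose from 5.94 and 6.45 CPM to 12.6 and 20.1 CPM, a log2 fold change of 1.56 (edgeR FDR = 1.27e-08). ITGB2 is a leukocyte gene, and of the monocyte markers with a row CSF1R fell, from 13.5 and 13.6 CPM to 3.39 and 2.49 CPM, whereas CD14 overlapped between the groups at 0.0665 to 1.02 CPM (edgeR FDR = 0.658). PTPRC, the pan-leukocyte marker, had no row. The alpha chain ITGAX was at 1.66 to 2.04 CPM in all 4 libraries. The membrane inhibitor SUSD4 was the other gene that rose among those over the filter in both groups besides C1RL, with a log2 fold change of 0.55 (edgeR FDR = 0.0027).

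C3AR1, the receptor for the fragment C3a, fell from 2.47 and 2.46 CPM to 0.679 and 1.07 CPM, a log2 fold change of -1.29 (edgeR FDR = 0.0065), a call that was lost with DESeq2 (adjusted p = 0.0921), without the deeper 786-O-Ctrl library (edgeR FDR = 0.0539) and without 786-O-VHL replicate 2 (edgeR FDR = 0.0913). C1QBP, a mitochondrial protein first described as a binder of C1q, fell by 0.50 on the log2 scale (edgeR FDR = 1.29e-07). C4A and C4B, the near-identical genes for C4, had 1 and 3 counts and 3 and 0 counts in the controls and 2 and 12 counts and 4 and 15 counts in the restored cells. Over pooled counts the ratios were 6.39 (exact Poisson interval at 95% 2.01 to 26.6) and 11.6 (3.4 to 61), and reads that match both genes make either value uncertain. The identifier of C4B in the table, ENSG00000228267.8, is likewise not among the genes of the GRCh37 annotation. With a library left out the fitted log2 fold change lay between 1.77 and 3.65 for C4A and between 2.71 and 6.53 for C4B, lowest without the deeper control for C4A and without the shallower for C4B, and highest without the other control. Without the deeper control the only C4B count left in the controls was 0, so the value of 6.53 depends on the prior count and is no bound. Neither gene could be tested without 786-O-VHL replicate 2. The call for C4A was lost with DESeq2 (adjusted p = 0.132) and without the deeper 786-O-Ctrl library (edgeR FDR = 0.172).

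**Figure D4:**
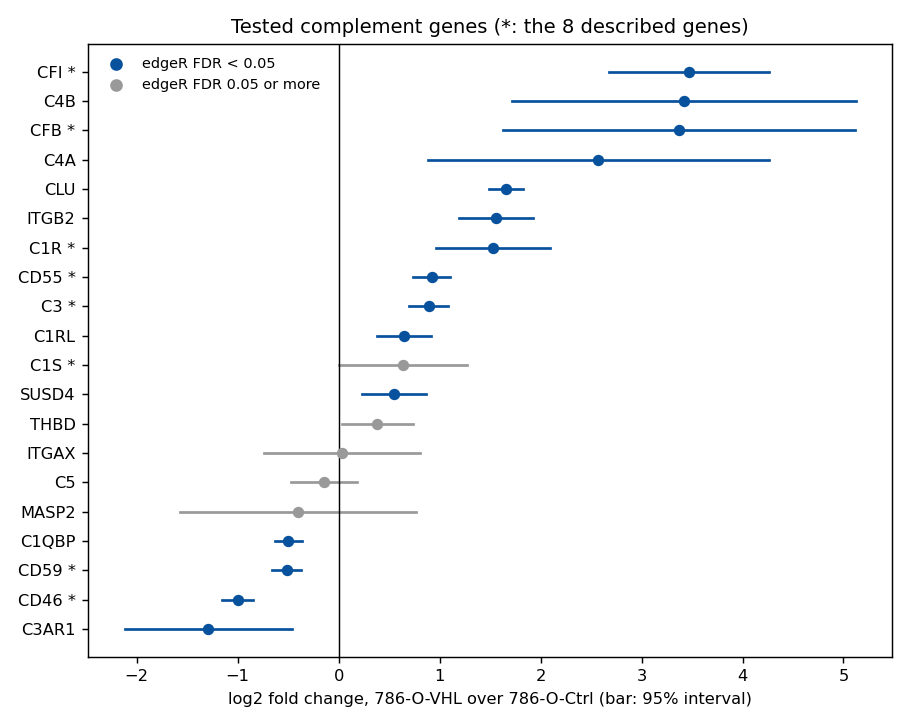
Points are edgeR log2 fold changes of 786-O-VHL over 786-O-Ctrl on the x axis with their 95% intervals for the 20 tested complement genes, and an asterisk marks the 8 genes described in full, with an edgeR FDR under 0.05 in blue. CFI, C4B and CFB lie farthest to the right with wide intervals, and C3AR1, CD46, CD59 and C1QBP are the 4 called below 0.

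Since CD55 and CD59 depend on a GPI anchor, the genes that build and attach it were counted as a list. Of the 28, 26 had a row and were tested, 6 were higher, 7 were lower and 13 did not pass, and their median log2 fold change was 0.00. The largest rises were those of PIGL, PIGV, PGAP2 and PIGT, with log2 fold changes of 0.71, 0.64, 0.56 and 0.32. The largest falls were those of MPDU1, GPAA1, DPM2 and PIGK, at -0.77, -0.59, -0.55 and -0.54. DPM2 acts in the synthesis of the mannose donor and MPDU1 in its use. GPAA1 and PIGK belong to the transamidase that attaches the finished anchor, as does PIGT, which rose. All of these differences were smaller than 2-fold, and the share of genes called, 13 of 26, was under the 64.5% of all tested genes. Scaled by library totals alone, 9 were higher and 5 lower, so no balance of directions is read from this list.

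Transcription of complement genes responds to interferons, interleukins and their factors, and 27 such genes were listed, of which 22 were tested. In 786-O-VHL 9 were higher and 4 lower, a share called near the 64.5% of all tested genes. The median log2 fold change of the 22 was 0.13. Scaled by library totals alone, 13 were higher and 3 lower. That scaling called 8174 of all 12335 tested genes and gave them a median log2 fold change of 0.15, so no balance of directions is read from this list. IRF1, a factor of interferon-responsive genes, rose from 63.7 and 74.7 CPM to 261 and 278 CPM, a log2 fold change of 1.98 (SE 0.0725, edgeR FDR = 4e-19). CEBPB, a factor of acute-phase genes, rose from 89.7 and 100.1 CPM to 254 and 272 CPM, a log2 fold change of 1.49 (SE 0.0683, edgeR FDR = 5.39e-17). IL6R and STAT2 rose by 1.04 and 0.82 on the log2 scale, and the rise of IL6R was lost without 786-O-VHL replicate 2 (edgeR FDR = 0.303). NFKB1, NFKB2, RELA and LIF fell, with log2 fold changes of -0.51, -0.37, -0.30 and -0.24. The call for LIF was lost with DESeq2 (adjusted p = 0.312), with library totals alone (edgeR FDR = 0.287) and without 786-O-VHL replicate 1, where its log2 fold change was -0.078 (edgeR FDR = 0.176), against -0.59 without replicate 2. IL6 itself was at 21.4 CPM in both controls and at 16.3 and 28.4 CPM in the restored cells. The interferon, STAT and NF-kB factors listed thus included genes that rose (IRF1, STAT2) and genes that fell (NFKB1, NFKB2, RELA). Others were not called, namely STAT3 at 0.10 (edgeR FDR = 0.184) and RELB at -0.02 (edgeR FDR = 0.868). Which of them acts at the matches in the CFB window was not tested, nor was a link between these levels and those of the complement genes.

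**Figure D5:**
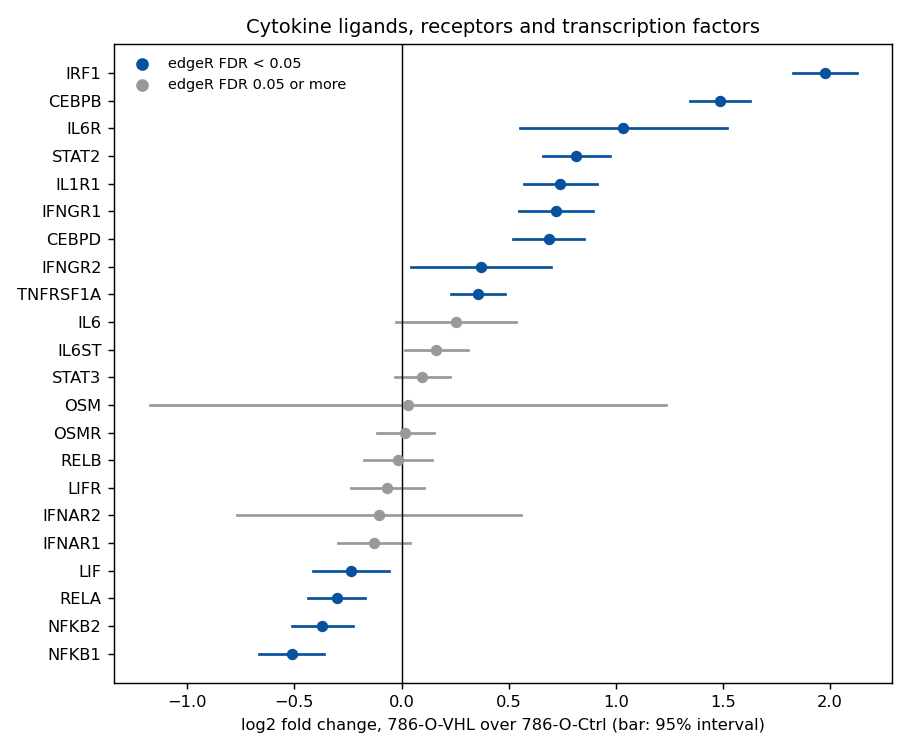
Points and bars give the edgeR log2 fold change (restored cells over controls) and its 95% interval for the 22 tested cytokine ligands, receptors and transcription factors. IRF1 and CEBPB lie farthest above 0, and NFKB1, NFKB2, RELA and LIF are the 4 called below it.

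The genes with the most similar profiles over the 4 libraries were sought for the 3 of the 8 with the largest change, by the Euclidean distance between centred log2 CPM. For CFI these were SLC2A2, ACRBP and FCGBP, at distances of 0.28 to 0.374. For CFB they were CNTN6, SLC23A1 and TMEM221, at 0.238 to 0.415, and for C1R they were CYP4V2, ITGA4 and ATP6V1FNB, at 0.0293 to 0.0634. These distances are over 4 libraries in 2 groups and are given as a description.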

How the data were processed

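Both groups (2 libraries each) were analysed from 1 table of gene counts. The authors aligned reads to hg19 and deposited raw counts per gene, whole numbers without normalization. Their processing notes name CASAVA and STAR, while versions, counting tool, strand setting and annotation were not given in the sources used here. Samples were grouped by title. Genes kept by filterByExpr (minimum count 10) numbered 12335, and 577 were removed. Counts were scaled by TMM and tested with the quasi-likelihood F test of edgeR 4.0.16 (R 4.3.3) with no covariate besides the group, and Benjamini-Hochberg adjustment (FDR) over all tested genes. The common dispersion was 0.00186, a biological coefficient of variation of 4.31%. Standard errors are those implied by F. DESeq2 1.42.0, limma-voom (limma 3.58.1), other scalings, filters, thinning to equal depth and leaving out each library were alternatives. Replicates differed by more than sampling noise, with a chi-square per degree of freedom of 2.25 (786-O-Ctrl) and 2.76 (786-O-VHL).

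On counts simulated for this comparison over 12335 genes, 200 of them changed, edgeR recovered 93 of 100 genes changed 2-fold and 100 of 100 changed 8-fold, with 5 false calls. The simulation gave every gene the same dispersion and balanced rises and falls, whereas 64.5% of all tested genes were called in the data. It therefore checks the code and gives no error rate for these data or for genes with few counts. Positions and exon lengths came from a GENCODE annotation lifted to GRCh37, in which 12749 of the 12912 identifiers were found. Promoter windows came from RefSeq on GRCh38.p14, and no coordinates were converted. The genes and lists were chosen with earlier results of these data known, and 2 listed genes are not reported here. Named were all 8 genes, up to 4 genes each way from every other list by size of change past FDR < 0.05, complement genes at the loci of the 8, their nearest tested neighbors, and the 3 genes most alike for the 3 with the largest change. GPR108, SUSD4, ITGAX, IL6, STAT3, RELB and overlapping genes were named after their values were seen.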

Additional observations from a re-analysis of the deposited data

How the results depend on the processing

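Leaving out each library in turn, the 8 genes gave between 4 and 5 calls higher and 2 lower, and every alternative gave 2 lower. Of 83 values of their log2 fold changes under the alternatives, 79 stayed on the same side of the threshold as before and 0 changed sign. The 2 that lost the call were those of CFB, and the 2 that gained it were those of C1S, with limma-voom (0.64) and with library totals alone (0.77). Scaling by library totals moved the median log2 fold change of all genes from 0.02 to 0.15. With at least 10 counts in every library, 3 of the 6 genes still tested were higher, since CFB and CFI are removed by construction.

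Past 4-fold, 1 gene passed with DESeq2 and after thinning and 0 with at least 10 counts in every library, and between 1 and 2 did with a library left out. Of the other complement genes, 3 were higher after thinning, and 1 was lower with DESeq2, with 10 counts in every library and after thinning. With a library left out, between 3 (without 786-O-VHL replicate 2) and 7 were higher and between 1 and 2 lower. Of the GPI anchor genes, 4 were lower after thinning, and with library totals alone 9 were higher and 5 lower. After thinning the log2 ratio differences were -2.10 for CD46 over CD55, -1.57 for CD59 over CD55, -0.53 for CD46 over CD59 and -0.076 for C1S over C1R. With a library left out they lay between -2.02 and -1.71, -1.51 and -1.26, -0.51 and -0.45, and -1.03 and -0.73 in that order. The cause of these shifts was not tested beyond the fewer counts and genes that each alternative leaves.

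No paired analysis was possible because both 786-O-Ctrl columns of the count table carry the same replicate number. The depth of 786-O-VHL replicate 1 limits CFB, CFI, C1R and C1S, which had between 2 and 27 counts there.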
